A study of Homo sapiens with 6 samples.

Results

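Described here are 10 target genes of the hypoxia-inducible factors (HIF) whose products lie outside glycolysis: ANGPTL4, CA9, ADM, VEGFA, BNIP3, BNIP3L, NDRG1, KDM3A, BHLHE40 and ANKRD37. They were taken from a list of names drawn up with earlier results of these data known, and each was found as 1 of the 35750 genes listed for the series. RNA came from T98G, an established human glioblastoma cell line grown in serum-containing medium. The first group, shSLC1A5, is 3 libraries of T98G cells carrying a short hairpin RNA against SLC1A5, a sodium-dependent transporter that brings glutamine and other neutral amino acids into the cell. The second, shControl, is 3 libraries of T98G cells carrying a control hairpin. All 6 libraries are poly(A)-selected RNA. The labels do not give the hairpin sequences, the oxygen tension, the time after transduction, or whether cells were pooled or cloned. Nor do they say that each library is its own culture. Every p-value therefore rests on the scatter among these 6 libraries, part or all of which may be technical.

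HIF is a pair of basic helix-loop-helix proteins, an oxygen-labile alpha subunit (HIF1A or EPAS1) and a stable partner (ARNT or ARNT2). With oxygen present, prolyl hydroxylases of the EGLN family mark the alpha subunit, and the VHL ubiquitin ligase then directs its destruction, so that HIF activity is set largely at the level of the protein. When hydroxylation fails, the dimer binds a short motif, the hypoxia response element, near genes for glucose use, acid and ion handling, blood vessel growth, removal of mitochondria and feedback on the pathway itself. In glioblastoma these genes are known for their expression around areas of necrosis.

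The RefSeq promoter table (build GRCh38.p14) holds sequences, each with 250 bases before and 50 bases after an annotated start, for 7 of the genes: CA9, ANGPTL4, ADM, BNIP3, ANKRD37, KDM3A and BHLHE40. VEGFA, NDRG1 and BNIP3L have no entry. The core of the response element was searched as ACGTG or GCGTG on either strand, and overlapping matches were counted as 1 place. It was found in all 7 genes, where 48.4% of the 35116 promoters in the table and 62.0% of the 12576 promoters of genes averaging 1 FPKM or more hold it. BNIP3 held 5 places, which 0.994% of all promoters and 1.32% of those of genes averaging 1 FPKM or more reach or pass. BHLHE40 held 3 and ANKRD37 held 2, and the other genes held 1. The BNIP3 window is 80.7% GC, where the other windows run from 62.0% for CA9 to 69.7% for ANKRD37. The part of base composition in these counts was not tested. The 4 promoters printed here belong to the genes with the largest and the next largest fold change (ANGPTL4 and CA9), to the one with the most places (BNIP3) and to the only gene that did not enter the test (ANKRD37). Capitals mark the motif on either strand, read 5′ to 3′ along the gene's own strand.
ANGPTL4, chr19:8363905-8364204, plus strand: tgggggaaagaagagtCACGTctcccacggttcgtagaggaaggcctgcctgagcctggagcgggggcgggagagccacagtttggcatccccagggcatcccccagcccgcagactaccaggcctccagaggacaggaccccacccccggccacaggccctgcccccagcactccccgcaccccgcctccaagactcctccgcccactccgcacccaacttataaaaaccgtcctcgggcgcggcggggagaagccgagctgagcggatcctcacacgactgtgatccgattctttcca
CA9, chr9:35673678-35673977, plus strand: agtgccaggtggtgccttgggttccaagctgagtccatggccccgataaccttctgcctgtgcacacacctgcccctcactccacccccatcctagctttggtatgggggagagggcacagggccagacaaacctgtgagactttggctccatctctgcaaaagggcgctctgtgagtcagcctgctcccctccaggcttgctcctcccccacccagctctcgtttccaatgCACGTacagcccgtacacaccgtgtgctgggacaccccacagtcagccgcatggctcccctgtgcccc
BNIP3, chr10:131981874-131982173, minus strand: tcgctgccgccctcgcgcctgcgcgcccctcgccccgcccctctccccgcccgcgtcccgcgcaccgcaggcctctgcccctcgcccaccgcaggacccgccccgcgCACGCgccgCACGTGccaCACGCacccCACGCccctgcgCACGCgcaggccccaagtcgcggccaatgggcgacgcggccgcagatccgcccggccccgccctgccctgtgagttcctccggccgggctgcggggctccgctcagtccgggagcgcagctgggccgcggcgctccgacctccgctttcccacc
ANKRD37, chr4:185396591-185396890, plus strand: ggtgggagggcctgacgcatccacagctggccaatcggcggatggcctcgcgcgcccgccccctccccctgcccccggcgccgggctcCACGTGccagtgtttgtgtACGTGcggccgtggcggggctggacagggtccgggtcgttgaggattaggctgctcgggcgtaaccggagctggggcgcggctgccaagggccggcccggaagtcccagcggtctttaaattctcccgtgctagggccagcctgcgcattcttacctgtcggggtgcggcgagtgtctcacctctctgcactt

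The motif of CA9 begins 18 bases before the annotated start and that of ANGPTL4 begins 234 bases before it. In BNIP3 the 5 places lie between 143 and 104 bases before the start. The longer palindrome CACGTG, which holds the motif on both strands and is also the E-box bound by other helix-loop-helix factors, occurs in BNIP3, ANKRD37 and BHLHE40, and in 7.26% of all promoters. A match describes the letters of these windows and is not a measure of HIF binding. ANGPTL4, with 1 place, had the largest fold change of the 10 genes, and BNIP3, with 5, an intermediate one.

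The libraries held 70802167, 67759692 and 66998312 counts in shSLC1A5 and 63420773, 62858288 and 59327548 counts in shControl. Testing was limited to the 11841 genes that averaged 1 FPKM or more. FPKM is a count scaled to gene length and library size. It follows the combined length of all annotated exons here, so VEGFA, whose annotated exons cover 14431 bases, reads low against genes with compact models. SLC1A5 itself differed little, with a mean of 87.9 ± 0.407 FPKM in shSLC1A5 and 95.8 ± 1.15 FPKM in shControl (SD, n = 3 each) and a log2 fold change of -0.14 (edgeR adjusted p = 1.93e-04), or -0.36 with a correction for GC content and transcript length (the GC correction), so directions are those of the libraries as labelled. Mesenchymal markers of glioblastoma lines were abundant (VIM at 339 and CD44 at 194 FPKM in shSLC1A5, against 391 and 210 FPKM in shControl). Of the glial and neural markers, named after their values were seen, OLIG2 had 170 to 208 counts in shSLC1A5 and 160 to 175 in shControl, and NES had 72 to 92 in shSLC1A5 and 32 to 45 in shControl. GFAP had 10 to 23 counts in shSLC1A5 and 8 to 28 in shControl, SOX2 had 0 counts in every shSLC1A5 library and 7 to 10 in shControl, and S100B had 0 counts in shSLC1A5 and at most 3 in shControl.

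Transcripts of other cell types were present in the libraries labelled shSLC1A5 above their counts in shControl. The 5 endothelial markers summed to 662, 634 and 617 counts in shSLC1A5, against 58, 115 and 54 counts in shControl, with 0 or 1 of them at 0 in shSLC1A5 libraries and 1 or 2 at 0 in shControl libraries. VWF had 250 to 317 counts in shSLC1A5 and 4 to 24 in shControl, and PECAM1 had 160 to 269 in shSLC1A5 and 28 to 63 in shControl. CDH5, named after its values were seen, had 98 to 118 counts in shSLC1A5 and 0 in shControl. The 7 B cell markers summed to 627 to 1246 counts in shSLC1A5 and 14 to 26 in shControl, with 0 or 1 of them at 0 in shSLC1A5 libraries and 4 or 5 at 0 in shControl libraries. IGHM led them with 378 to 729 counts in shSLC1A5 and 0 in shControl, and IGKC had 106 to 186 in shSLC1A5 and 6 to 17 in shControl. The 9 neutrophil markers summed to 4754 counts in shSLC1A5 replicate 1 and to 47 and 39 in replicates 2 and 3, against 12 to 22 in shControl, led by S100A8 and S100A9, at 2301 and 830 counts in that replicate. The 5 red cell markers that the table lists summed to 1004 counts in replicate 1, led by ALAS2 and SLC4A1 at 773 and 225 counts, to 20 and 7 in replicates 2 and 3, and to 0 to 6 in shControl. Of the neutrophil markers 1, 6 and 4 were at 0 in shSLC1A5 replicates 1, 2 and 3, and 5 to 7 in shControl libraries. The neutrophil granule gene MPO, named after its values were seen, was at 0 in every library.

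The libraries labelled shSLC1A5 had higher transcripts of 9 of the 10 HIF targets, and the tenth, ANKRD37, was below the level needed for testing. ANGPTL4 was 11.2-fold and CA9 4.20-fold higher, ADM, NDRG1 and BNIP3 were 1.66-fold to 1.87-fold higher, and BNIP3L, VEGFA, BHLHE40 and KDM3A were 1.19-fold to 1.39-fold higher. In none of the 9 did the groups overlap, where 27.3% of all tested genes had every shSLC1A5 library above every shControl library. Of all tested genes, 20.2% were called higher and 19.0% lower by the same test (edgeR quasi-likelihood, adjusted p under 0.05), and since the 10 genes were chosen with earlier results known, their count is a description. Against a stricter null, that the fold change is at most 1.2 in either direction, 7 of the 9 tested genes were still called higher, where 3.30% of all tested genes were, and KDM3A and BHLHE40 were not (adjusted p = 1 and 0.640). ANGPTL4 and CA9 had means under 1 FPKM in shControl and entered the test through their level in shSLC1A5. In bulk RNA, more cells of a type and more RNA per cell cannot be told apart. The summed level of the 10 genes was 253, 258 and 257 FPKM in shSLC1A5, against 155, 155 and 156 FPKM in shControl, most of it from ADM, BNIP3 and NDRG1.

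**Figure D1:**
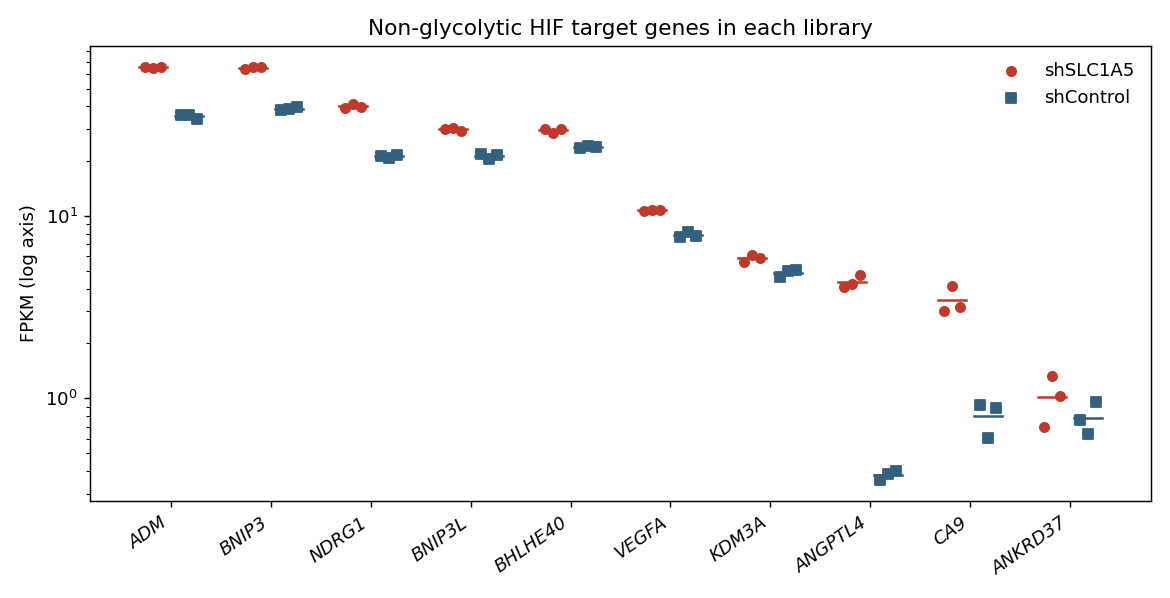
FPKM of the 10 HIF target genes (log axis) in each of 3 shSLC1A5 libraries (circles, left) and 3 shControl libraries (squares, right), with lines at the group means. The groups are apart for every gene except ANKRD37, and the gap is widest for ANGPTL4 (4.35 FPKM in shSLC1A5, against 0.380 in shControl).

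Among the secreted and cell surface products, ANGPTL4 changed most. It encodes angiopoietin-like 4, a secreted inhibitor of lipoprotein lipase (ENSG00000167772, GRCh38 chromosome 19, 8363289 to 8374370, plus strand). It had 806, 803 and 882 counts in shSLC1A5, against 64, 68 and 67 counts in shControl. Its level was 4.06, 4.26 and 4.73 FPKM in shSLC1A5, against 0.356, 0.386 and 0.399 FPKM in shControl. Every shSLC1A5 library was about an order of magnitude above every shControl library. The log2 fold change was 3.48 (SE 0.14, 95% confidence interval 3.18 to 3.79, edgeR adjusted p = 3.14e-08), and 99.8% of tested genes had a lower one. On the log2(FPKM + 1) scale, which compresses genes of low level, the difference was 1.95.

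CA9 encodes carbonic anhydrase IX, a membrane enzyme that hydrates carbon dioxide outside the cell and is widely used as a marker of hypoxia (ENSG00000107159, chromosome 9, 35673918 to 35681159, plus strand). It had 3.01, 4.15 and 3.17 FPKM in shSLC1A5, against 0.924, 0.610 and 0.881 FPKM in shControl. The counts were 387, 508 and 383 in shSLC1A5, against 107, 70 and 95 in shControl. The groups were well apart, but CA9 also varied more within a group than any other tested gene of the 10: its coefficient of variation was 18.1% in shSLC1A5 and 21.2% in shControl, where counting alone would give 4.85% and 10.5%. The log2 fold change was 2.07 (SE 0.21, 95% confidence interval 1.61 to 2.53, adjusted p = 2.54e-05), or 1.29 on the log2(FPKM + 1) scale. The span of CA9 overlaps that of ARHGEF39 on the opposite strand, and since the strand setting of the counting is not given, reads of the shared stretch cannot be told apart. ARHGEF39 had 1014, 966 and 878 counts in shSLC1A5 and 738, 860 and 774 counts in shControl.

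ADM encodes adrenomedullin, a peptide that widens blood vessels (ENSG00000148926, chromosome 11, 10305073 to 10307397, plus strand). Its level was 65.4, 65.1 and 66.0 FPKM in shSLC1A5, against 36.0, 35.6 and 34.1 FPKM in shControl. The spread within shSLC1A5 was 0.721% of the mean, far under the gap between groups, and the log2 fold change was 0.88 (SE 0.031, adjusted p = 9.75e-09). VEGFA encodes the main growth factor for blood vessels (ENSG00000112715, chromosome 6, 43770184 to 43786487, plus strand). Its level was 10.7, 10.8 and 10.8 FPKM in shSLC1A5, against 7.66, 8.16 and 7.80 FPKM in shControl. The groups did not overlap, and the log2 fold change of 0.44 (SE 0.028, adjusted p = 9.78e-07) was smaller than that of ADM.

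BNIP3 and BNIP3L are related receptors of the outer mitochondrial membrane that recruit the autophagy machinery to mitochondria. BNIP3 (ENSG00000176171, chromosome 10, 131966455 to 131982013, minus strand) had 64.0, 65.7 and 65.7 FPKM in shSLC1A5, against 38.0, 38.6 and 39.8 FPKM in shControl. Every shSLC1A5 library was above every shControl library, and the log2 fold change was 0.73 (SE 0.021, adjusted p = 2.52e-09). BNIP3L (ENSG00000104765, chromosome 8, 26383054 to 26413127, plus strand) had 30.1, 30.5 and 29.4 FPKM in shSLC1A5, against 22.0, 20.5 and 21.6 FPKM in shControl, again with no overlap. Its log2 fold change was 0.48 (SE 0.035, adjusted p = 2.44e-06), and the 95% intervals of the pair, 0.69 to 0.78 for BNIP3 and 0.40 to 0.56 for BNIP3L, were apart. The table also lists 18 pseudogenes named after BNIP3, whose summed counts came to 0.554% to 0.642% of those of BNIP3 in shSLC1A5 and 0.936% to 1.34% in shControl. A gene on the strand opposite BNIP3 (ENSG00000273521, chromosome 10, 131980240 to 131981337) had 273, 213 and 204 counts in shSLC1A5 and 76, 58 and 45 counts in shControl. Its reads and those of BNIP3 cannot be told apart without strand.

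NDRG1 encodes a cytoplasmic protein induced by hypoxia and differentiation (ENSG00000104419, chromosome 8, 133237175 to 133302022, minus strand). It had 39.2, 41.2 and 39.7 FPKM in shSLC1A5, against 21.2, 20.8 and 21.7 FPKM in shControl, and its 35813 to 37659 counts in shSLC1A5 were the most of the 10 genes. The groups were far apart, with no library between them. The log2 fold change of 0.90 (SE 0.022, 95% confidence interval 0.85 to 0.95, adjusted p = 8.84e-10) had the smallest adjusted p of the 9 tested genes and an interval that overlapped that of ADM, 0.81 to 0.95.

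The smallest differences among called genes were those of the regulators of transcription. KDM3A removes methyl groups from lysine 9 of histone H3 (ENSG00000115548, chromosome 2, 86440647 to 86492716, plus strand). It had 5.58, 6.13 and 5.90 FPKM in shSLC1A5, against 4.62, 4.96 and 5.08 FPKM in shControl, so that the lowest shSLC1A5 library was just above the highest shControl library. The log2 fold change was 0.25 (SE 0.045, adjusted p = 0.00144). BHLHE40 encodes a transcriptional repressor that also acts on the circadian clock (ENSG00000134107, chromosome 3, 4979437 to 4985323, plus strand). Its level was 30.1, 28.5 and 30.2 FPKM in shSLC1A5, against 23.7, 24.3 and 23.9 FPKM in shControl. All shSLC1A5 libraries were above all shControl libraries, with a log2 fold change of 0.29 (SE 0.035, adjusted p = 8.61e-05). BHLHE40-AS1, which overlaps it on the opposite strand, had 25 to 47 counts in shSLC1A5 and 24 to 30 in shControl. Both calls held without any single library. Of all tested genes, 84.9% had a lower log2 fold change than KDM3A and 88.0% a lower one than BHLHE40.

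ANKRD37, an ankyrin repeat protein (ENSG00000186352, chromosome 4, 185396021 to 185400241, plus strand), was the gene of lowest level in shSLC1A5. It had 0.695, 1.33 and 1.03 FPKM in shSLC1A5, against 0.758, 0.636 and 0.957 FPKM in shControl. The counts were 128, 231 and 177 in shSLC1A5, against 126, 103 and 146 in shControl. The groups overlapped, since the first shSLC1A5 library was below 2 of the 3 shControl libraries. An exact two-sided permutation test of its FPKM gave p = 0.3, where 0.1 is the smallest p that 3 libraries against 3 allow and the value of each of the other 9 genes. In edgeR without the filter on level, where 5.52% of 34207 genes were called higher, its log2 fold change was 0.36 (SE 0.28, 95% confidence interval -0.29 to 1.00, adjusted p = 0.472). That interval includes both no difference and a change as large as that of NDRG1. Its span overlaps UFSP2 on the opposite strand, which had 980 to 1195 counts in shSLC1A5 and 1066 to 1103 counts in shControl.

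**Figure D2:**
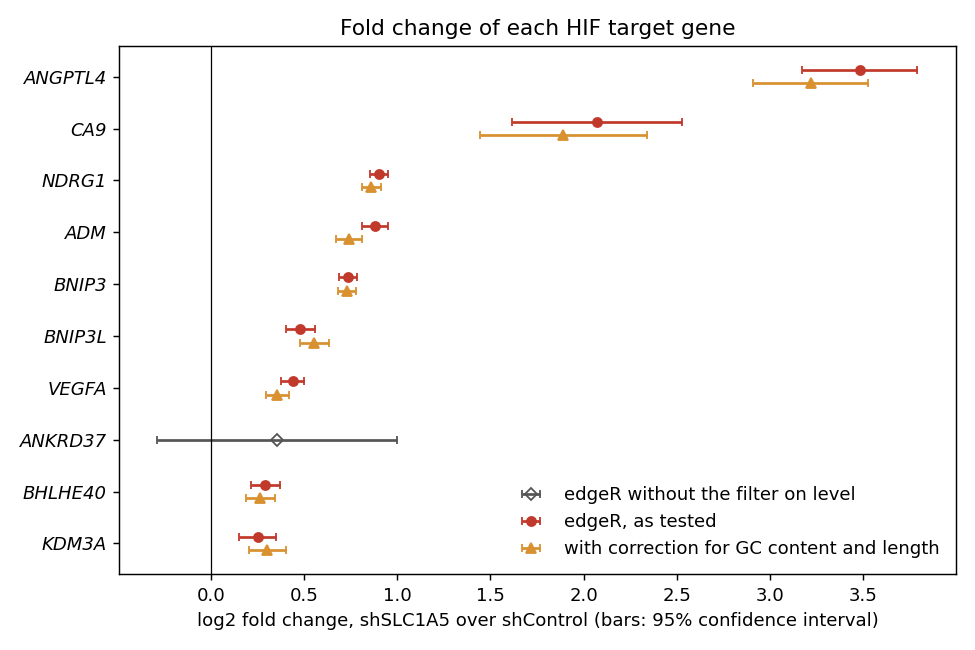
Log2 fold change of each gene, shSLC1A5 over shControl, with bars for the 95% confidence interval: edgeR as tested (circles), with the GC correction (triangles), and without the filter on level for ANKRD37 (diamond). All 9 tested genes are above 0 in both fits, from 0.25 for KDM3A to 3.48 for ANGPTL4, and the interval of ANKRD37 includes 0.

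Fold changes of all genes followed GC content in these libraries: 51.7% of tested genes in the top of 4 equal classes of GC content were called higher, against 4.58% in the bottom class. The 10 genes spread over this range. ANGPTL4, CA9 and ADM, with transcripts of 63.3%, 60.1% and 58.5% GC, were in the top class, and BNIP3L, at 38.9%, in the bottom class. Of the genes called in all, 51.6% were higher, but with the GC correction 39.7% were, 1220 higher and 1855 lower. With that correction, where 10.3% of all tested genes were called higher and 15.7% lower, the 9 tested genes were all still called higher. The log2 fold change then was 3.22 for ANGPTL4, 1.89 for CA9, 0.74 for ADM and 0.36 for VEGFA, each smaller than without it. It was 0.55 for BNIP3L and 0.30 for KDM3A, each larger than without it. For NDRG1 and BHLHE40 it was slightly smaller, at 0.86 and 0.26, and for BNIP3 it was 0.73 in both fits.

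**Figure D3:**
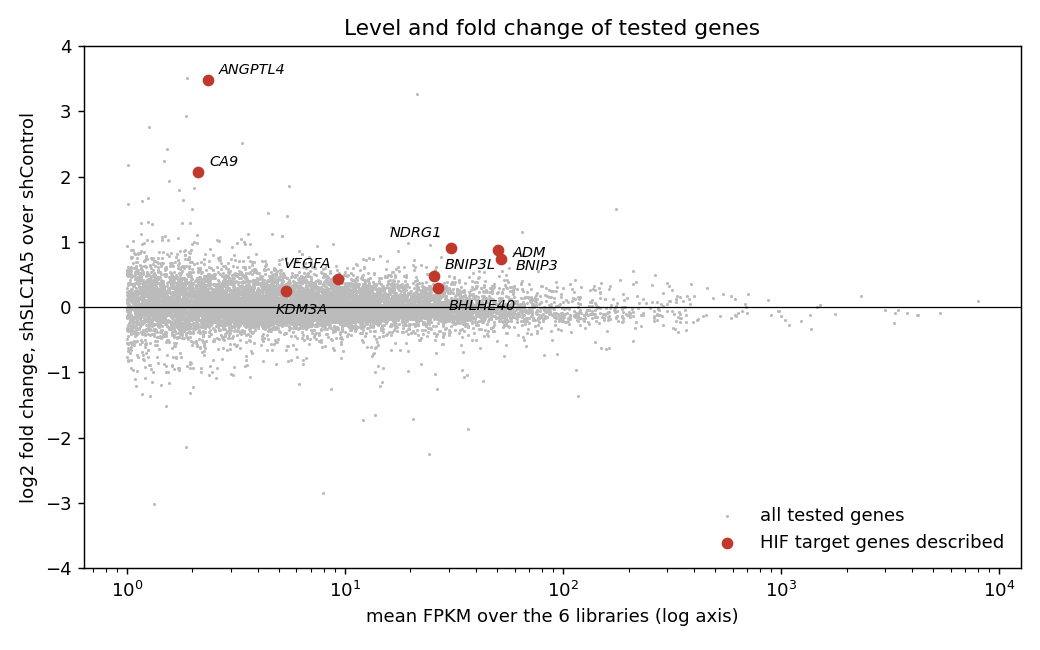
Log2 fold change, shSLC1A5 over shControl, against mean FPKM over the 6 libraries (log axis) for tested genes (grey; 19 of 11841 genes lie outside the axis limits) and the 9 tested HIF targets (red). ANGPTL4 and CA9 stand out at low level, ADM, NDRG1 and BNIP3 stand above genes of similar level, and KDM3A and BHLHE40 lie within the grey band.

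Within groups the 10 genes did not share 1 leading library. Among shSLC1A5 libraries, replicates 2 and 3 were each the highest for 5 genes and replicate 1 was the lowest for 7. Among shControl libraries, replicate 3 was the highest for 5 genes and replicate 1 the lowest for 5. CA9 and ANKRD37 were both highest in shSLC1A5 replicate 2, at 0.29 and 0.44 above their group means on the log2 scale, and both lowest in shControl replicate 2, at -0.38 and -0.28. Of the other genes, the one with a library farthest from its group mean was ANGPTL4, at 0.12 in shSLC1A5 replicate 3. BNIP3L, which has a known role in red cell maturation, had 30.1 FPKM in shSLC1A5 replicate 1, between the values of replicates 2 and 3. The 9 genes were also called higher without shSLC1A5 replicate 1, which held most of the neutrophil and red cell counts. Their log2 fold changes then included 3.53 for ANGPTL4, 2.16 for CA9, 0.88 for ADM and 0.47 for BNIP3L. Leaving out that library does not remove the B cell and endothelial transcripts, which were present in every shSLC1A5 library. In counts, ANGPTL4 and CA9 were of the same order as the endothelial markers together. Scaled to length, the 5 endothelial markers summed to 1.05, 1.10 and 1.01 FPKM in shSLC1A5 replicates 1, 2 and 3. In these libraries ANGPTL4 had 4.06 to 4.73 FPKM and CA9 had 3.01 to 4.15 FPKM. The part of other cell types in the result was not tested.

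Of the HIF subunits, EPAS1 was called higher and HIF1A was not called in either direction. HIF1A averaged 51.7 ± 1.07 FPKM in shSLC1A5 and 51.6 ± 1.11 FPKM in shControl (SD, n = 3 each), with a log2 fold change of -0.01 (SE 0.023, adjusted p = 0.757) that was 0.06 with the GC correction (adjusted p = 0.0622). EPAS1, the other alpha subunit, averaged 25.2 ± 0.440 FPKM in shSLC1A5 and 20.1 ± 0.220 FPKM in shControl, a rise of 0.32 on the log2 scale (adjusted p = 4.55e-06). The partner ARNT was at 0.13 (adjusted p = 0.0627, or 0.0176 without shSLC1A5 replicate 3), and ARNT2 was called lower at -0.15, a call lost when any of 4 libraries was left out (adjusted p from 0.0528 to 0.0948). With the GC correction and all 6 libraries ARNT2 was at -0.21 (adjusted p = 0.00566). HIF3A was not analysed here.

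The oxygen sensors include HIF targets of their own. EGLN3, a prolyl hydroxylase strongly induced by HIF, averaged 2.36 ± 0.148 FPKM in shSLC1A5 and 1.34 ± 0.0839 FPKM in shControl, a rise of 0.80 on the log2 scale (adjusted p = 4.00e-05). EGLN1, the main oxygen sensor, rose by 0.44 (adjusted p = 3.84e-06) and VHL rose by 0.18 (adjusted p = 0.00273). EGLN2 at 0.19 and HIF1AN, which hydroxylates an asparagine of the alpha subunits, at -0.12 passed the threshold but lost their calls with the GC correction (0.07 and -0.08, adjusted p = 0.376 and 0.181). Each also lost it without some single libraries, with an adjusted p from 0.0627 to 0.0753 for EGLN2 and from 0.0864 to 0.169 for HIF1AN. In all, 5 of the 9 tested subunits and sensors were called higher and 2 lower, where 20.2% and 19.0% of all tested genes were. With the GC correction 4 were higher and 1 lower, where 10.3% and 15.7% of all tested genes were.

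Of 39 other HIF targets outside glycolysis, 34 were tested, and 22 were called higher, 4 lower and 8 in neither direction, where 20.2% of all tested genes were higher and 19.0% lower. Their median log2 fold change was 0.25, and that of all tested genes was -0.01. Against a fold of 1.2, 9 were higher and 4 lower, where 3.30% and 1.82% of all tested genes were. STC1, a secreted glycoprotein hormone, averaged 89.7 ± 1.59 FPKM in shSLC1A5 and 39.9 ± 0.226 FPKM in shControl, a rise of 1.16 on the log2 scale. DDIT4, an inhibitor of mTORC1, rose by 1.09 and SPAG4, a protein of the nuclear envelope, by 0.97. EDN1, the precursor of the vessel-constricting peptide endothelin, averaged 2.02 ± 0.253 FPKM in shSLC1A5 and 4.14 ± 0.485 FPKM in shControl and fell by 1.04. Among the other genes called lower, HMOX1 and MAFF, named after their values were seen, had log2 fold changes of -0.67 and -0.44, and MAFF was at -0.68 with the GC correction. The glycolytic HIF targets are given only for the pathway's sake: 20 of 20 tested were called higher, where 20.2% of all tested genes were. With the GC correction 19 were, where 10.3% of all tested genes were, and GAPDH was not called (0.03, adjusted p = 0.109). SLC16A3, ENO2, PFKFB3 and HK2 led the glycolytic targets with log2 fold changes of 0.77, 0.74, 0.61 and 0.58, each under that of ADM and NDRG1. SLC16A3 was at 0.48 with the correction.

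**Figure D4:**
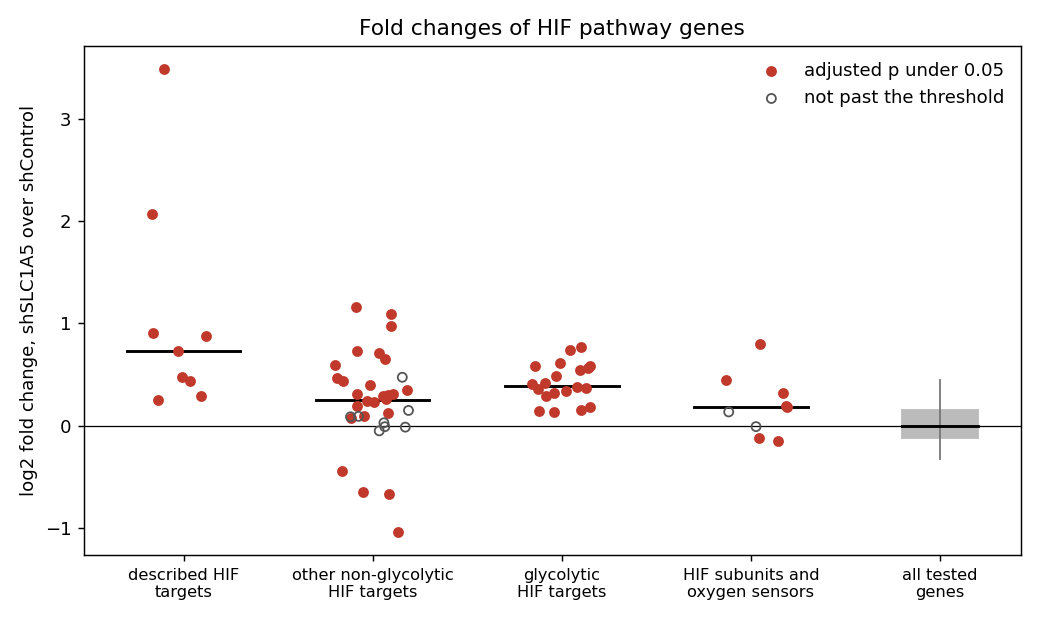
Log2 fold change, shSLC1A5 over shControl, of the 9 tested HIF targets described, of 34 other non-glycolytic targets, of 20 glycolytic targets and of 9 HIF subunits and sensors (filled: adjusted p under 0.05; open: not past the threshold; lines: medians), beside all tested genes (box: quartiles; whisker: 5th to 95th percentile). The medians are 0.73, 0.25, 0.39 and 0.18, against -0.01 for all tested genes.

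Few relatives of the secreted and surface genes reached the level tested: 3 of 8 carbonic anhydrases, with 1 called higher, 1 of 5 ANGPTL genes, called higher, and 1 of 7 receptors and relatives of adrenomedullin, called lower. Among all tested genes 20.2% were called higher and 19.0% lower, and lists this small cannot be told from those shares. CA12, the other membrane carbonic anhydrase linked to tumours, averaged 14.6 ± 0.0595 FPKM in shSLC1A5 and 12.1 ± 0.302 FPKM in shControl (log2 fold change 0.26, adjusted p = 9.15e-05), so it was the more abundant of the pair per length, with the smaller fold change. CA12 also stands among the other HIF targets counted. CA5B, a mitochondrial form, was at -0.25 (adjusted p = 0.124). ANGPTL2 rose by 0.27, a call lost with the GC correction (adjusted p = 0.107) and without shSLC1A5 replicate 2 (0.0524), and ANGPTL1 was below the level tested. The adrenomedullin receptor CALCRL, named after its values were seen, had 24 to 28 counts in shSLC1A5 and 0 in shControl, in the same libraries as the endothelial markers. The RAMP genes of the same list did not follow it, and their groups overlapped. RAMP1 had 17 to 34 counts in shSLC1A5 and 12 to 25 in shControl, and RAMP2 had 23 to 26 in shSLC1A5 and 15 to 33 in shControl. RAMP3 had 0 counts in shSLC1A5 and at most 4 in shControl. ACKR3, a scavenger receptor of adrenomedullin, fell by 0.59 on the log2 scale (adjusted p = 0.00230), and ADM5 was below the level tested.

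Of 9 relatives and receptors of VEGFA 4 were tested, and 1 was called higher and 2 lower, where 20.2% and 19.0% of all tested genes were. VEGFC, a growth factor of lymphatic vessels, had 36.6 ± 1.52 FPKM in shSLC1A5 and 41.0 ± 1.06 FPKM in shControl and fell by 0.17 on the log2 scale, and the coreceptor NRP1 fell by 0.27. VEGFB rose by 0.36, but after the GC correction it was at 0.00 (adjusted p = 0.971). KDR, the main VEGFA receptor of endothelium, named after its values were seen, was below the level tested, with 35 to 59 counts in shSLC1A5 and 0 to 4 in shControl. The receptor FLT1, also below that level, went the other way and had more counts, 506 to 549 in shSLC1A5 and 542 to 663 in shControl. Its mean was 0.551 FPKM in shSLC1A5 and 0.691 FPKM in shControl, and the groups did not overlap in FPKM. NDRG3 averaged 23.3 ± 0.159 FPKM in shSLC1A5 and 23.8 ± 0.820 FPKM in shControl (adjusted p = 0.367), and NDRG4 was below the level tested.

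Of 14 other tested mitophagy genes, 3 were called higher and 4 lower, with a median log2 fold change of -0.05. These counts were near the shares of all tested genes (20.2% higher and 19.0% lower). With the GC correction 1 was higher and 4 lower, where 10.3% and 15.7% of all tested genes were. FKBP8, a mitophagy receptor, rose by 0.57, or by 0.22 with the GC correction. MAP1LC3B, the LC3 protein that such receptors bind, fell by 0.29, and the adaptor CALCOCO2 fell by 0.19. ULK1, the kinase that starts autophagy, was called higher at 0.19, but was at -0.12 with the GC correction (adjusted p = 0.144) and lost its call without shSLC1A5 replicate 1 or 2 or shControl replicate 1 (adjusted p from 0.0591 to 0.0800).

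Among 11 tested Jumonji demethylases related to KDM3A, 4 were called higher and 2 lower, where 20.2% and 19.0% of all tested genes were. With the GC correction 2 were higher and 3 lower, where 10.3% and 15.7% of all tested genes were. KDM6B and KDM4B, the second of which also stands among the other HIF targets counted, rose by 0.66 and 0.60, or by 0.41 and 0.36 with the GC correction. KDM2B at 0.25 lost its call with it (0.09, adjusted p = 0.173), and JMJD1C fell by 0.23. Of 10 tested clock genes tied to BHLHE40, 3 were called higher and 1 lower, near the shares of all tested genes (20.2% and 19.0%). With the GC correction 2 were higher and 1 lower, where 10.3% and 15.7% of all tested genes were. The paralog BHLHE41 was called higher at 0.54 (adjusted p = 0.0231, or 0.0917 without shSLC1A5 replicate 3 and 0.0841 without shControl replicate 3) and the nuclear receptor NR1D2 fell by 0.41. PER1 at 0.42 lost its call with the GC correction (0.13, adjusted p = 0.429), and CLOCK at 0.10 (adjusted p = 0.0497) lost it in 5 of the 6 fits that left out 1 library, all but the one without shSLC1A5 replicate 2 (adjusted p from 0.0503 to 0.106).

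ANGPTL4 is also a target of the fatty acid receptors of the PPAR family. Of 8 other such targets tested 4 were called higher and 2 lower, where 20.2% and 19.0% of all tested genes were. With the GC correction 4 were higher and 0 lower, where 10.3% and 15.7% of all tested genes were. PLIN2, a coat protein of lipid droplets, averaged 22.8 ± 0.211 FPKM in shSLC1A5 and 9.66 ± 0.612 FPKM in shControl, a rise of 1.22 on the log2 scale (adjusted p = 1.28e-08). CPT1A, ACADVL and ACAA2, enzymes of mitochondrial fatty acid oxidation, rose by 0.56, 0.41 and 0.34. ACADM at -0.11 and HADHA at -0.07, named because they are few, were called lower and lost their calls with the GC correction (adjusted p = 0.493 and 0.243) and when most single libraries were left out (adjusted p from 0.0596 to 0.163 for ACADM and from 0.0589 to 0.141 for HADHA).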

How the data were processed

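Per the labels' protocols, RNA was extracted with TRIzol, captured on oligo(dT) beads and sequenced on an Illumina instrument with paired reads of 150 bases. The submitters' processing notes name HISAT2, StringTie and fastp. Not given in the sources used here are the tool versions, the build and annotation, whether counting used strand, and how multi-mapping reads were handled. The authors deposited 1 table with whole-number counts per gene and library, taken as raw, and FPKM, per the file headers. The length that links the deposited counts and FPKM was 1.12 to 1.13 times the combined exon length in GENCODE 29 (median over genes above 5 FPKM). GENCODE 29 holds 34674 of the 35750 gene IDs, and the spans given for 99.97% of them overlap its own on GRCh38. Columns headed NC were taken as shControl and those headed sh as shSLC1A5, by the numbers in the titles, and 0 columns of values were left unmapped.

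Counts were tested with edgeR 4.0.16 in R 4.3.3: TMM scaling, group alone, quasi-likelihood F tests, Benjamini-Hochberg adjustment over the 11841 genes averaging 1 FPKM or more, and an adjusted p under 0.05. The standard error is the log2 fold change over the square root of F. Genes were named by a rule: all 10 members, SLC1A5, every tested subunit and sensor, up to 4 called genes of the largest change per list, or the 2 of highest FPKM where fewer than 2 were called, and the 2 markers of the most counts per cell type. Members and lists were chosen with earlier results of these data known. Alternatives were DESeq2 1.42.0, limma 3.58.1 on log2(FPKM + 1), on log2(FPKM + 0.1) and on quantile-normalized values, RLE scaling, no filter or filterByExpr, a test against a fold of 1.2, a replicate block, a loess correction (span 0.3) for GC content and length of the longest transcript, and leaving out each library. Replicates differed by more than counting error (chi-square per gene from 9.82 to 16.7), so none was taken as a repeat. Only the edgeR fit with TMM scaling and group alone was also tested on simulated counts.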

Additional observations from a re-analysis of the deposited data

How the results depend on the processing

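The 9 tested HIF targets were called higher, and 0 lower, by edgeR with TMM or RLE scaling, without a filter, with filterByExpr, with the GC correction (GC content and transcript length), with the replicate block and without any single library, by DESeq2 and by limma on FPKM or quantile-normalized values. Against a fold of 1.2, 7 remained higher. Of the other HIF targets outside glycolysis, 22 were higher in the first fit, 9 against that fold and 20 to 21 without single libraries, and 4 were lower in each of these fits. Calls over all genes, 4641 in the first fit, were 607 against a fold of 1.2 (391 higher, 216 lower), 3075 with the GC correction (1220 higher) and 2943 with that correction and the replicate block (1158 higher). Leaving out each library gave 3863 to 4081 calls, 2027 to 2158 higher and 1836 to 1923 lower.

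Same-numbered libraries did not deviate together (correlations -0.15, 0.04 and -0.03), nor did every library correlate best with its own number, so the numbers were not used to pair them. With a replicate block 4470 genes were called, the 9 targets among them. Depth limits bear mainly on ANKRD37, whose 103 to 231 counts leave a counting error of 7.48% and 8.94% of the mean in shSLC1A5 and shControl, and on ANGPTL4 and CA9 in shControl. On the log2(FPKM + 1) scale those 2 genes gave 1.95 and 1.29. Intervals assume that libraries of a group are independent.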
